A study of Homo sapiens with 12 samples.

Results

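The transcriptome of necroptotic HT-29 cells was compared with that of vehicle-treated cells gene by gene, with most weight on the genes that fell. These cells are an established line from an adenocarcinoma of the human colon. Of 26485 genes listed for the series, the 11821 with a mean of at least 10 normalized reads over both groups were taken as members, without regard to their change. The 2 groups, DMSO and TSZ, held 3 libraries each of the 12 in the series, and all cells were collected after 8 h. TSZ stands for TNFα at 10 ng/ml, the Smac mimetic SM-164 at 50 nM and the pan-caspase inhibitor zVAD at 20 μM, whereas the DMSO group received the solvent alone. TSZ was thus compared as a whole and the share of each of its 3 agents cannot be told apart. The other groups of the series received TNFα alone, or TSZ with the RIPK1 inhibitor Nec-1s at 10 μM, and entered the fit only to estimate the spread.

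Necroptosis is a lytic form of cell death. When TNFα engages its receptor while IAP proteins are antagonized and caspases are blocked, RIPK1 and RIPK3 assemble and RIPK3 phosphorylates MLKL, which breaches the plasma membrane. The response is best known for the induction of inflammatory mediators. HT-29 cells also carry, as dividing cells of colonic origin, the programs of DNA replication and mitosis, of the intestinal epithelium and of WNT signalling. A fall of an mRNA in bulk RNA does not tell fewer cells that express it from less of it per cell.

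Levels are given as normalized reads, that is, the reads of a library divided by the size factor the authors' scaling gave it. The reads of single libraries were recovered from the group means, and the libraries of a group are lettered a, b and c by their scaling step. These letters tie no DMSO library to a TSZ library. Estimated depth was 8842436 to 10645018 reads in DMSO and 10811244 to 11303634 reads with TSZ. Reads per library could not be recovered for 24 members, all abundant with TSZ, which left 11797 genes for the test. By the authors' means all 24 were higher with TSZ, from 1.33-fold (PKM) to 616-fold (CXCL8, 53.4 in DMSO and 32890 with TSZ). The counts of higher genes below leave them out. In DMSO library b and TSZ library a, the deviation of a gene from its group mean followed GC content (Spearman's rho -0.81 and -0.75, across 11592 genes), so AU-rich genes were high in these libraries. In the other libraries of both groups, whose deviations are tied to these, rho lay between 0.54 and 0.78. The sources used here do not say if replicate libraries stem from separate cultures, so the p-values rest on a spread among samples that may be only technical. Of 15 colon markers, EPCAM, KRT8, KRT18, KRT19, CDH1 and LGALS4 were abundant in both groups. CDX1 was at 0 in DMSO and CDX2, a master factor of intestinal identity, had an authors' mean of 4.75 normalized reads in DMSO. GPA33, TFF3 and PIGR were low in DMSO as well, with authors' means of 3.21, 6.44 and 7.43. The leukocyte markers PTPRC, CD3E and TYROBP and the endothelial markers CDH5 and KDR were at 0 in both groups. Other members had reads and moved both ways. By the authors' means, CD14 went from 80.8 in DMSO to 12.6 with TSZ and PECAM1 from 21.1 to 9.95. CD68 went from 154 to 550.5 and ITGAM from 9.33 to 117. Reads of CD68 are uncertain, since 100% of its exonic bases overlap another annotated gene and strand was not used in counting. The summed level of 10 leukocyte markers, nearly all of it LYZ, ranged from 15040 to 15360 in DMSO and from 19900 to 21270 with TSZ. The summed level of 10 fibroblast and endothelial markers ranged from 56.7 to 202 in DMSO and from 213 to 496 with TSZ.

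The transcriptome moved in both directions, and the falls were shallower than the rises. With TSZ, 2832 genes were lower and 3091 were higher at an adjusted p under 0.05 by limma (24.0% and 26.2% of all tested genes). The median log2 fold change was -0.80 among the lower genes and 0.89 among the higher genes. At least 2-fold changes with the same adjusted p were found for 953 lower genes (8.08%) and 1362 higher genes (11.5%). At least 8-fold changes were found for 9 lower and 245 higher genes. The lowest log2 fold change was -4.39 and the highest 10.49. The highest was that of CCL20, at 0, 0 and 1.07 normalized reads in DMSO and 1163, 1043 and 933 with TSZ. For genes near 0 in 1 group that floor sets the size of the change. Such genes passed the mean filter through the other group. In 2612 of the 2832 lower genes, each TSZ library was below each DMSO library. The call itself favours genes without overlap, so this count adds no support to the falls. The share among all tested genes is not given here.

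The balance between falls and rises rests on the scaling. With the authors' size factors the median log2 fold change of all tested genes was -0.01, and with scaling to total reads it was -0.42, with 5682 genes lower and 1689 higher. That scaling lowers fold changes as a whole, so it was fixed in advance that the 2832 lower genes kept their direction. Of the 3091 higher genes, 2810 kept a log2 fold change above 0. Every fold change below is therefore relative to the median gene. List counts and medians given with total reads carry this shift of all genes. They stand beside 5682 lower and 1689 higher of 11797 genes and a median of -0.42.

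**Figure D1:**
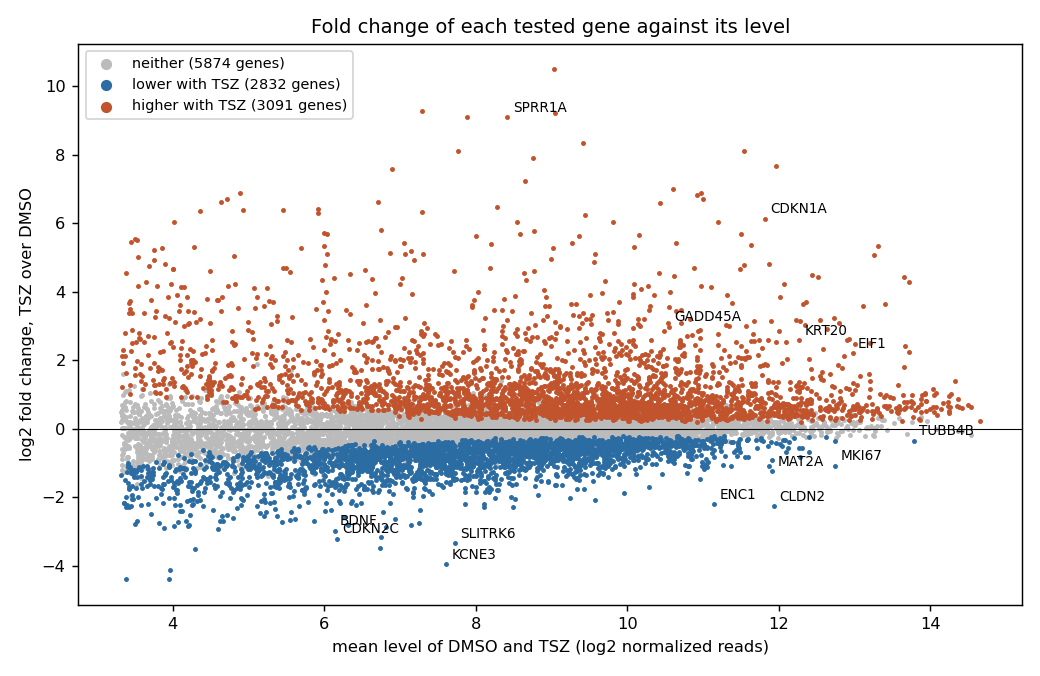
Log2 fold change of TSZ over DMSO against the mean level (log2 normalized reads) of 11797 tested genes. Blue points are the 2832 lower genes and orange points the 3091 higher genes, and grey points passed neither way. The rises reach farther from 0 (up to 10.49, in CCL20, which was near 0 in DMSO) than the falls (down to -4.39).

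Among genes with a mean of at least 50, KCNE3 fell most. KCNE3, the accessory subunit of a basolateral potassium channel of the intestinal crypt (chromosome 11, from 74454841 to 74467729 of hg38), had levels of 423, 336 and 339 normalized reads in DMSO libraries a, b and c and of 31.1, 20.3 and 19.04 in TSZ libraries a, b and c. Each TSZ library was thus far below each DMSO library, a 15.6-fold lower mean (log2 fold change -3.96, standard error 0.25, adjusted p = 3.5e-08). SLITRK6, a leucine-rich transmembrane protein, was at 312, 609.6 and 238 in DMSO and at 56.6, 23.7 and 30.9 with TSZ (log2 fold change -3.33, standard error 0.48, adjusted p = 7.9e-05). The highest SLITRK6 values of both groups lay in the libraries that deviated with GC content. The largest falls were chosen among genes whose groups did not overlap, so the lack of overlap in SLITRK6 was fixed by that choice. SOSTDC1, a secreted antagonist of BMP and WNT ligands, was at 183, 219.7 and 177 and at 33.3, 19.2 and 14.3 in the same order (log2 fold change -3.15, standard error 0.29, adjusted p = 1.3e-06).

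BDNF, a neurotrophin, was at 119, 145 and 112 normalized reads in DMSO and at 18.9, 12.4 and 15.5 with TSZ (log2 fold change -2.97, standard error 0.26, adjusted p = 9.2e-07). B4GAT1, a glycosyltransferase that acts on dystroglycan, was at 197, 183 and 215 in DMSO and at 23.3, 29.3 and 27.4 with TSZ (log2 fold change -2.87, standard error 0.18, adjusted p = 4.5e-08). In neither gene did a TSZ library come near a DMSO library. PPFIBP2, a liprin that binds at sites of cell adhesion, was at 259, 245 and 244 in DMSO and at 41.05, 36.1 and 28.6 with TSZ, and ADAMTS6, a secreted metalloprotease, had means of 265 ± 33.6 and 39.2 ± 7.497 (SD, n = 3 each). PRR15L was 10.9-fold lower with TSZ (log2 fold change -3.47, standard error 0.36, adjusted p = 4.7e-06). The 25 genes with the largest falls spanned log2 fold changes of -3.96 to -2.18, and each kept its call when any 1 library of DMSO or TSZ was left out.

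Other regulators stood among the 25 largest falls. NEIL3, a DNA glycosylase of replicating cells, was at 76.5, 152 and 76.96 in DMSO and 16.6, 12.4 and 14.3 with TSZ (log2 fold change -2.69, standard error 0.39, adjusted p = 9.3e-05). TSHZ1, a homeobox and zinc finger factor, was at 176, 187 and 188 and 24.4, 34.99 and 45.2, and RFXAP, a subunit of the activator of MHC class II genes, at 53.1, 123 and 80.2 and 22.2, 11.3 and 16.7. ZMYM3, a zinc finger protein of chromatin, was at 471, 391 and 511 and 90.97, 97.1 and 92.8, and EPN3, an epsin of endocytosis, at 451, 396 and 509 and 93.2, 114 and 89.3. NEIL3 was highest in DMSO library b. RBBP8NL, ZNF792, LRRC45 and LOC100506127 had log2 fold changes of -2.58, -2.41, -2.27 and -2.22.

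Among abundant mRNAs, CLDN2 and ENC1 fell most. CLDN2, a claudin that forms cation pores in tight junctions (chromosome X, from 106900164 to 106930861), stood at 6802, 5567 and 7059 in the DMSO libraries and at 1198, 1388 and 1488 with TSZ (log2 fold change -2.25, standard error 0.11, adjusted p = 3.9e-09). ENC1, a kelch protein (chromosome 5, from 74627406 to 74641424), was at 3769, 3938 and 3465 and at 757, 855 and 807 (log2 fold change -2.21, standard error 0.09, adjusted p = 5.1e-10). MAT2A, which makes S-adenosylmethionine, was at 5559.9, 5584 and 5043 in DMSO and 2187, 2316 and 2364 with TSZ, so its libraries were tight within each group and apart between them (log2 fold change -1.24, standard error 0.08, adjusted p = 7.1e-08).

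Of the 15 lower genes with the highest mean in DMSO, 10 kept their call without any 1 library. MKI67, the proliferation antigen Ki-67, was at 9379, 9105 and 9357 in DMSO and at 4104, 4714 and 4445 with TSZ (log2 fold change -1.07, standard error 0.08, adjusted p = 2.6e-07). DKC1 and NOP56, nucleolar proteins of small nucleolar ribonucleoproteins, each had a log2 fold change of -0.67. The kinase PRKDC, the importin KPNB1, the E2F partner TFDP1 and the lectin MLEC had log2 fold changes of -0.37, -0.25, -0.39 and -0.57. TUBB4B, a β-tubulin, had the highest mean in DMSO (15820.0 ± 3310.0) against 12300.0 ± 938 with TSZ (SD, n = 3 each), and its call was lost without DMSO a, DMSO c or any 1 TSZ library. The calls of ATAD2, CCT6A, PRPF8 and SRSF1 also hung on single libraries: that of ATAD2 was lost without DMSO b, TSZ b or TSZ c, that of CCT6A without DMSO a, DMSO b, TSZ b or TSZ c, that of PRPF8 without DMSO a, DMSO c or TSZ a, and that of SRSF1 without TSZ b.

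**Figure D2:**
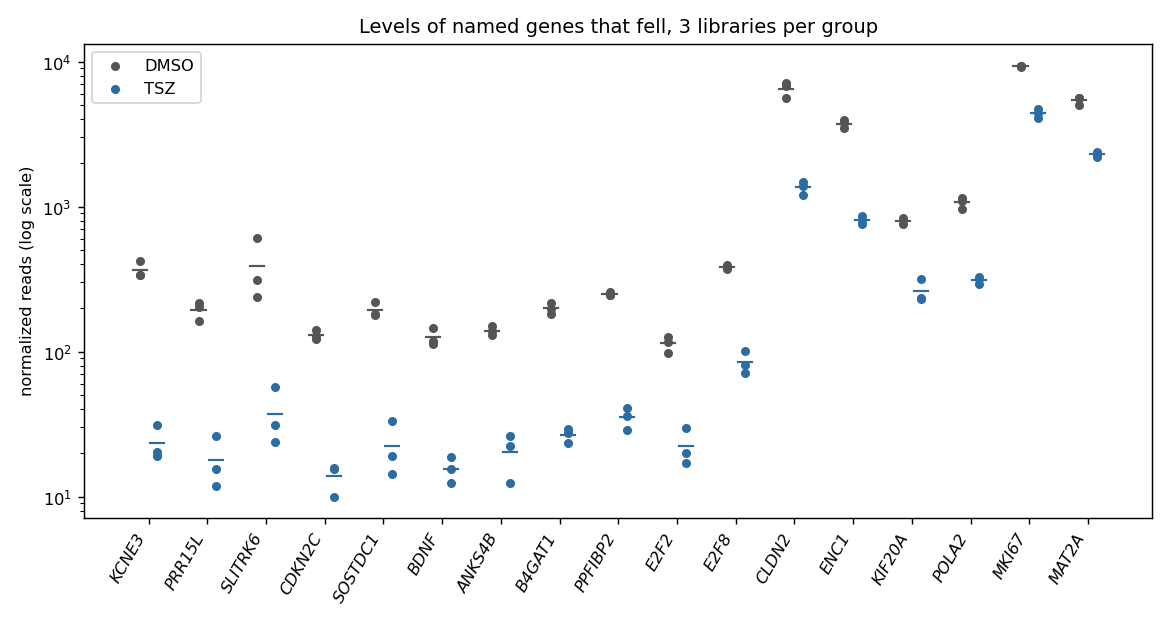
Normalized reads (log axis) of 17 named genes that fell, with each of the 3 DMSO libraries in grey, each of the 3 TSZ libraries in blue, and a bar at each group's mean. In all 17 genes the TSZ libraries lie below the DMSO libraries.

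The replication program fell nearly as a block. Of 48 tested genes for origin licensing, helicase and polymerase function, 40 were lower and 1 was higher (RPA3, log2 fold change 0.32), against 24.0% and 26.2% of all tested genes. Their median log2 fold change was -0.87, beside -0.01 for all tested genes. POLA2, a subunit of DNA polymerase α-primase (chromosome 11, from 65261913 to 65305959), was at 1145, 964 and 1099 in DMSO and at 327, 293 and 318 with TSZ (log2 fold change -1.77, standard error 0.10, adjusted p = 1.6e-08). GINS3, of the replicative helicase complex, was at 375, 353 and 393 and 90.97, 133 and 133 (log2 fold change -1.67, standard error 0.14, adjusted p = 8.2e-07). POLD3, a subunit of polymerase δ, was at 793, 896 and 733 and 295, 255 and 227 (log2 fold change -1.64, standard error 0.14, adjusted p = 1.1e-06). PRIM1, the catalytic subunit of primase, was at 229.6, 323 and 201 and 92.1, 45.1 and 60.7 (log2 fold change -1.95, standard error 0.29, adjusted p = 0.00012), and its highest value in each group was that of the library that deviated with GC content. PRIM1 and POLA2 share 38% and 56% of their exonic bases with another annotated gene, and reads were counted without regard to strand. Members that did not pass the test included MCM7 (log2 fold change -0.01), PCNA (-0.37) and ORC4 (0.01).

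Genes of mitosis were mostly lower as well. Of 64 kinesin, kinetochore, spindle and mitotic kinase genes, 42 were lower and 1 was higher (UBE2C, log2 fold change 0.49), with a median of -0.78. KIF20A, the kinesin of the central spindle, was at 813, 759.9 and 829 in DMSO and 233, 230.2 and 318 with TSZ (log2 fold change -1.64, standard error 0.12, adjusted p = 1.8e-07). DSN1, a kinetochore protein, was at 493, 531 and 539.8 and 153, 183 and 190.4 (log2 fold change -1.57, standard error 0.12, adjusted p = 2.6e-07). CDK1, the mitotic kinase, and MYBL2 had log2 fold changes of -0.01 and -0.09 and did not pass. CENPE, KIF20B and CASC5 had values of -1.03, -1.01 and -0.96 that did not pass the test.

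DNA repair genes leaned the same way. Of 67 tested, 43 were lower and 3 higher, with a median log2 fold change of -0.63. BRCA1, of homologous recombination, was at 415, 624 and 398 in DMSO and 166, 155 and 136 with TSZ (log2 fold change -1.62, standard error 0.20, adjusted p = 1.9e-05). BARD1, its partner, was at 146, 301 and 125 and 77.7, 36.1 and 34.5 (log2 fold change -1.91, standard error 0.38, adjusted p = 0.00093), with DMSO library b standing above the others for both genes. PMS2, of mismatch repair, had means of 196 ± 17.6 and 64.6 ± 7.82 (SD, n = 3 each). Without DMSO library b and TSZ library a, 41 replication, 49 mitotic and 46 repair genes were lower. Of 29 genes of nucleotide synthesis, 12 were lower and 1 higher, with a median of -0.20, led by UMPS (-0.89), DHODH (-0.84) and RRM2 (-0.82), which act in pyrimidine and deoxynucleotide synthesis.

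At the G1 checkpoint, inhibitors of cyclin-dependent kinases moved in opposite directions. CDKN1A, encoding p21 (chromosome 6, from 36676460 to 36687337), stood at 102, 83.04 and 119 in the DMSO libraries and at 5955, 7596 and 7809 with TSZ, a 70.4-fold higher mean (log2 fold change 6.13, standard error 0.16, adjusted p = 1.8e-11). CDKN2B, encoding p15, was at 82.8, 108 and 95.1 and 1213, 1202 and 1131 (log2 fold change 3.64, standard error 0.12, adjusted p = 1.1e-10). CDKN2C, encoding p18 of the same INK4 family (chromosome 1, from 50960745 to 50974634), was at 122, 139.8 and 128 in DMSO and only 9.98, 15.8 and 15.5 with TSZ (log2 fold change -3.21, standard error 0.25, adjusted p = 2.9e-07). The E2F factors E2F2 and E2F8 fell as well, E2F2 from 117, 97.8 and 126 to 19.97, 16.9 and 29.8 and E2F8 from 394, 380.5 and 369 to 80.98, 100.5 and 71.4 (log2 fold change -2.18, standard error 0.15, adjusted p = 9.7e-08). In all, 13 of 28 tested G1 genes were lower and 7 were higher.

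Promoters of both programs were searched for elements known from such genes. E2F factors bind sites of the kind TTTCCCGC, TTTCGCGC, TTTGCCGC or TTTGGCGC, and the cell cycle genes homology region (CHR), TTTGAA, is the element of many mitotic promoters. Both strands of the 250 bases before each start were searched in RefSeq promoters of GRCh38.p14, for the 6374 tested genes with 1 promoter under their symbol. An E2F site was found in 10 of 33 replication promoters, 3 of 44 mitotic promoters and 4.74% of all. The CHR letters were found in 23 of 44 mitotic promoters, in none of the 33 replication promoters and in 7.75% of all. Among all lower genes the shares were 6.13% for the E2F site and 9.26% for the CHR, and among all higher genes 3.36% and 6.40%. Among lower members alone, 9 of 30 replication promoters held an E2F site and 21 of 34 mitotic promoters the CHR letters. The lists were drawn from textbook knowledge, so the shares of replication and mitotic promoters describe these lists and not the response to TSZ. A match is a description of the letters and not of binding.

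The sequences are those of the 2 members of each list with the largest falls among those that hold the element, whose libraries did not overlap, chosen after their values were seen. POLA2 is given above, MCM3 of the licensing helicase had a log2 fold change of -1.10, and the kinesins KIF15 and KIF11 had -1.27 and -1.11. Capitals mark the E2F site in the first pair and the CHR, read on the other strand as TTCAAA, in the second pair. The KIF15 window also holds an E2F site in small letters, just before the CHR and read on the other strand as GCGCCAAA. In GRCh38.p14, the POLA2 window is chr11:65261712-65261961 on the plus strand, that of MCM3 chr6:52284743-52284992 on the minus strand, that of KIF15 chr3:44761544-44761793 on the plus strand and that of KIF11 chr10:92592880-92593129 on the plus strand.
POLA2: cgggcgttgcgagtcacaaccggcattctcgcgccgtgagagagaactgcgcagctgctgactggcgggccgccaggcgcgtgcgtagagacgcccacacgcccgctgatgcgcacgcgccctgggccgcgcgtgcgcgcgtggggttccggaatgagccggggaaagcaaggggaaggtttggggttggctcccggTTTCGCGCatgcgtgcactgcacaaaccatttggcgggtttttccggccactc
MCM3: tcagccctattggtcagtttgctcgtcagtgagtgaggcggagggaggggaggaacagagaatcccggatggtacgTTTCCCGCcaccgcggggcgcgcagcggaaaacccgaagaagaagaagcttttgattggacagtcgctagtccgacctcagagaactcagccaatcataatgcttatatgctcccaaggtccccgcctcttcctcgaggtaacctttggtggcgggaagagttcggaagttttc
KIF15: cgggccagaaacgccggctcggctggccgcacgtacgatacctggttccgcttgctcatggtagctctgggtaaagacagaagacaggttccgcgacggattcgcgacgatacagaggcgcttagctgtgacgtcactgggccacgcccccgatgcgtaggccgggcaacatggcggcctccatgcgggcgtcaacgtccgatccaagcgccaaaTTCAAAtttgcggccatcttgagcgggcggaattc
KIF11: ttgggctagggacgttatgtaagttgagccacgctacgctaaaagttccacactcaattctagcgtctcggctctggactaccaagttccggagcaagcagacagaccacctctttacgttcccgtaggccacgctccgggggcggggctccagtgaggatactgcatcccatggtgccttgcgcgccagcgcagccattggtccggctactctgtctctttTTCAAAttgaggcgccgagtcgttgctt
The E2F letters began 53 bases before the start in POLA2 and 174 in MCM3, whereas the CHR letters began 35 and 28 bases before it in KIF15 and KIF11.

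Zinc finger genes, most of which encode DNA-binding repressors, made up the longest list. Of 344 tested ZNF genes, 122 were lower and 42 higher, with a median log2 fold change of -0.43. ZNF311 was at 48.6, 37.8 and 41.7 in DMSO and 6.66, 2.26 and 8.33 with TSZ, ZNF30 was at 72.9, 96.7 and 82.3 and 22.2, 10.2 and 9.52, and ZNF488 was at 246, 219.7 and 306 and 42.2, 56.4 and 48.8 (log2 fold change -2.37, standard error 0.21, adjusted p = 1.2e-06). In none of these did a TSZ library reach a DMSO library. ZNF165 went the other way, from 37.8, 39.9 and 41.7 to 278, 273 and 263 (log2 fold change 2.76, standard error 0.15, adjusted p = 7.7e-09). ZNF genes have many near-identical relatives, so their counts are uncertain where reads could be split.

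HOX genes, the homeobox factors of positional identity, were examined after their values were seen. Of 32 tested HOX genes and HOX antisense RNAs, 21 were lower and 2 higher, with a median log2 fold change of -0.93. HOTTIP, a long noncoding RNA at the 5′ end of the HOXA cluster (chromosome 7, from 27198575 to 27207259), was at 177, 213 and 239 in DMSO and 42.2, 22.6 and 36.9 with TSZ (log2 fold change -2.64, standard error 0.23, adjusted p = 9.2e-07). HOTAIR, of the HOXC cluster, was at 152, 157 and 129 and 23.3, 32.7 and 44.03 (log2 fold change -2.16, standard error 0.23, adjusted p = 5.2e-06). HOXC8 was at 35.1, 24.2 and 41.7 and 8.87, 11.3 and 8.33, and HOXB13, a factor of the distal colon, at 55.8, 38.9 and 43.8 and 19.97, 7.900 and 20.2. The 2 higher members were HOTAIRM1 (log2 fold change 0.78) and HOXB4 (0.64), whereas HOXB9, the most abundant, had 0.19 and did not pass. The calls of HOXC5 and HOXC13 were lost without DMSO a, DMSO c, TSZ a or TSZ c, and that of HOXC5 also without TSZ b. Several antisense members overlap HOX exons, and as strand was not used in counting their reads cannot be told apart.

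Genes of epithelial and WNT identity split. Of 36 tested WNT pathway genes, 14 were higher and 9 lower, which flipped with total reads to 8 higher and 19 lower. ASCL2, a stem cell factor and WNT target, was at 19.8, 26.3 and 40.6 in DMSO and 3.33, 2.26 and 4.76 with TSZ (log2 fold change -2.84, standard error 0.45, adjusted p = 0.00019). FZD4, a WNT receptor, was at 38.7, 34.7 and 42.8 and 11.1, 7.900 and 3.57, and SP5, a WNT target, at 42.3, 45.2 and 54.5 and 5.55, 23.7 and 9.52, with TSZ library b the highest of its group for SP5. PDX1, an intestinal and pancreatic factor, was at 77.4, 64.1 and 64.1 and 9.98, 13.5 and 16.7 (log2 fold change -2.34, standard error 0.28, adjusted p = 1.5e-05). SOX9, a crypt factor, and PPARD, a lipid receptor, went up from 1188, 1215 and 1028 to 3287, 3711 and 3788 and from 487, 369 and 595 to 2935, 3538 and 3840.4. Of 25 intestinal transcription factors, 11 were higher and 6 lower (median 0.16), which flipped with total reads to 8 higher and 11 lower (median -0.26). Of 23 brush border genes, 8 were higher and 3 lower, which flipped with total reads to 5 higher and 11 lower. ANKS4B, of the links between microvilli, was at 149, 138 and 130.4 in DMSO and 22.2, 12.4 and 26.2 with TSZ (log2 fold change -2.81, standard error 0.26, adjusted p = 1.3e-06).

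Several further lists had more falls than rises, with most members not passing. Of 76 centrosome and cilium genes 30 were lower and 5 higher, with a median log2 fold change of -0.43. Of 91 ribosome biogenesis genes 30 were lower and 9 higher (median -0.24), led by UBTF, an RNA polymerase I factor, from 2548, 2141 and 2630.5 to 954, 1240.3 and 1253. Of 43 tRNA and RNA methyltransferases, a list made after values were seen, 16 were lower and 3 higher (median -0.39). Of 25 peroxisome genes 8 were lower and 1 higher, and PXMP4, a peroxisomal membrane protein, had a log2 fold change of -1.75. Of 52 nuclear pore and transport genes 14 were lower and 3 higher, and of 77 mitochondrial ribosome genes 20 were lower and 7 higher, near the 24.0% of all tested genes. The mitochondrial ribosome count was 33 without DMSO library b.

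**Figure D3:**
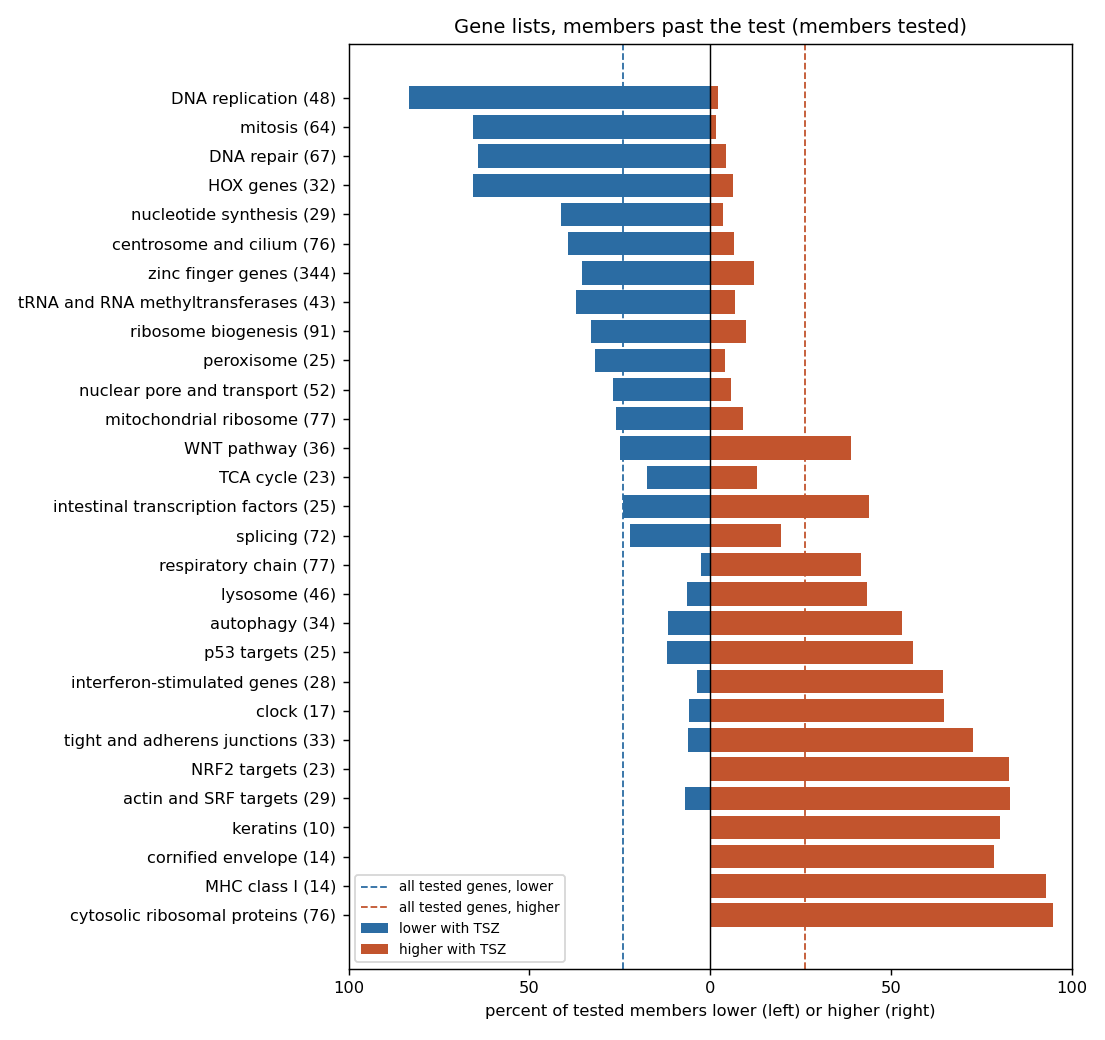
Percent of the tested members of 29 gene lists that were lower (blue, left) or higher (orange, right) with TSZ, with dashed lines at 24.0% and 26.2% of all tested genes. Replication, mitosis, repair and HOX genes extend farthest to the left and cytosolic ribosomal proteins farthest to the right.

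Fatty acid oxidation and the TCA cycle held few calls with the authors' size factors, whereas with total reads 18 and 10 of their members were lower. Of 26 fatty acid oxidation genes 5 were lower and 3 higher, among them EHHADH and CPT2 (log2 fold changes -1.39 and -1.33), enzymes of peroxisomal and mitochondrial oxidation. Of 23 TCA cycle genes 4 were lower and 3 higher. Of 72 splicing genes 16 were lower and 14 higher, with SRSF7 at -0.99 and the kinases CLK3 and CLK4 at 1.55 and 1.37. Of 94 chromatin regulators 26 were lower and 24 higher, with the deacetylase HDAC9 at 5.33 and the demethylase KDM6B at 3.43, and of 73 genes of mRNA decay 20 were lower and 18 higher, with ZFP36, which destabilizes AU-rich mRNAs, at 3.65 and BTG1 at 3.91. Of all tested genes 24.0% were lower and 26.2% higher, and the chromatin regulators and genes of mRNA decay lay near both shares. The splicing genes lay near 24.0% lower and below 26.2% higher. The genes named from these lists therefore do not stand for their lists. With total reads the splicing genes gave 40 lower and 4 higher, the chromatin regulators 52 and 15, and the genes of mRNA decay 41 and 10. With only the 6 libraries of DMSO and TSZ in the fit, 7 splicing genes were lower.

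Translation genes moved to unlike extents by list. Of 76 cytosolic ribosomal protein genes, 72 were higher and none was lower, with a median log2 fold change of 0.66, and with total reads 34 were higher and 2 lower with a median of 0.25. RPL13, RPL28 and RPL13A had log2 fold changes of 1.03, 1.03 and 0.98, and reads of such genes can be split with processed copies. Of 45 translation factor genes 18 were higher and 5 lower (median 0.24). With total reads these flipped to 4 higher and 16 lower (median -0.17). Of 20 aminoacyl-tRNA synthetase genes 4 were higher and 2 lower (median 0.03), and with total reads 2 and 11. EIF1, which selects start codons, was at 3111, 2601 and 2895 in DMSO and 13113, 12964 and 13574 with TSZ (log2 fold change 2.21, standard error 0.08, adjusted p = 1.9e-10), whereas EEF2K, the kinase that inhibits elongation, had -1.57. These were the largest rise and the largest fall among the translation factors. Of 77 nuclear-encoded subunits of the respiratory chain 32 were higher and 2 lower (median 0.26). With total reads these flipped to 1 higher and 18 lower (median -0.15, beside -0.42 for all tested genes). Without TSZ library c, 20 of them were higher. The median of lysosomal genes (0.32, 20 of 46 higher) flipped as well, to -0.10 with total reads, and its largest changes included NEU1 (3.13), a sialidase, and NPC1 (2.71), of cholesterol export. Of 20 glycolysis genes 11 were higher and none lower, and with total reads 3 were higher and 8 lower. Of 35 proteasome genes 9 were higher, near the 26.2% of all tested genes, and 2 lower. With total reads 0 proteasome genes were higher and 18 lower.

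Of the 15 largest rises outside the lists of cytokines, AP-1 and cholesterol genes, each kept its call without any 1 library. They still held the chemokine CCL22, which the cytokine list lacks, at 0 in the DMSO libraries and at 273, 331 and 340.4 with TSZ. ICAM1, an adhesion receptor, had means of 38.7 ± 5.09 and 7953 ± 906, PLAU, the urokinase, of 18.6 ± 8.26 and 1367 ± 137, and DUSP1, a MAPK phosphatase, of 39.8 ± 13.6 and 4073 ± 400.3 (DMSO then TSZ, SD, n = 3 each). Of 25 p53 target genes, 14 were higher and 3 lower, with a median log2 fold change of 0.99. Among them were BBC3 (5.65), which encodes the BH3 protein PUMA, PLK3 (3.58) and GADD45A (2.98), whereas BAX, a classic target, had 0.08 and did not pass. MDM2, which degrades p53, had 0.92. Of 15 BCL2 family genes 9 were higher and none lower (median 0.325), with PMAIP1 and MCL1 at 2.70 and 2.60. Without TSZ library b or without TSZ library c, 5 of the BCL2 family were higher. With total reads 5 of the family were higher and 4 lower, and the median flipped to -0.088. Of 22 genes of the ATF4 and CHOP response 16 were higher and 2 lower, among them PPP1R15A (5.34), which directs dephosphorylation of eIF2α, and DDIT4 (4.71), an inhibitor of mTORC1. Of 34 TGFβ and BMP pathway genes 18 were higher and 4 lower (median 0.65), among them the BMP pseudoreceptor BAMBI (3.45). With total reads 13 of these pathway genes were higher and 10 lower (median 0.24). INHBA, which encodes an activin subunit, was at 0 in the DMSO libraries and at 55.5, 58.7 and 35.7 with TSZ. Of 54 receptor tyrosine kinase and adaptor genes 22 were higher and 11 lower, which flipped with total reads to 15 higher and 24 lower, with IRS2 and PIK3CD at 3.46 and 2.87.

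Genes of barrier and differentiation rose in several lists. KRT20, a keratin of differentiated enterocytes, was at 1421, 1438 and 1354 in DMSO and 8738, 8517 and 8224 with TSZ (log2 fold change 2.60, standard error 0.07, adjusted p = 2e-11), and KRT17, a stress keratin, at 143, 106 and 157 and 2668, 3069.8 and 3237. MUC2, the goblet cell mucin, was at 15.3, 10.5 and 8.55 and 214, 266 and 265 (log2 fold change 4.39, standard error 0.30, adjusted p = 1e-07). KRT20 and MUC2 belong to the 15 colon markers, of which 9 were tested, with 7 higher and 0 lower. Not all of these markers rose. VIL1 had authors' means of 1105 in DMSO and 995.1 with TSZ and did not pass. TFF3, GPA33 and CDX2, low in DMSO as given above, had authors' means of 7.609, 3.004 and 2.244 with TSZ and were not tested. SPRR1A, of the cornified envelope, was at 1.800, 1.05 and 0 in DMSO and at 649, 714 and 684 with TSZ. Of 10 keratins 8 were higher, of 14 cornified envelope genes 11, of 33 junction genes 24 (2 lower) and of 29 actin and SRF target genes 24 (2 lower). The summed fibroblast and endothelial markers given above were also higher in each TSZ library, by COL1A1 and COL1A2 for the most part, and their part in the actin count was not tested. In the actin list the calls of ACTA2 and MYL9 were lost without DMSO c, TSZ a or TSZ c, without DMSO a for ACTA2 and without TSZ b for MYL9.

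Antioxidant, antigen presentation and clock genes also rose. Of 23 NRF2 targets 19 were higher and none lower, and AKR1C1, an aldo-keto reductase, was at 146, 116 and 191 in DMSO and 5572, 6815 and 6197 with TSZ (log2 fold change 5.38, standard error 0.15, adjusted p = 2e-11), although its reads can be shared with AKR1C2. Of 14 MHC class I genes 13 were higher, led by PSMB9, TAP1 and HLA-E (log2 fold changes 3.23, 2.88 and 2.78). Of 17 clock genes 11 were higher and 1 lower, with BHLHE40, PER1 and NR1D1, all repressors of the clock, at 6.05, 3.40 and 3.21. Of 34 autophagy genes 18 were higher and 4 lower (median 0.42), and OPTN and GABARAPL1, an autophagy receptor and an ATG8 protein, each gained over 3 units on the log2 scale. With total reads 10 autophagy genes were higher and 9 lower (median 0.009). NEAT1, the RNA of paraspeckles, was at 2464, 2857 and 2295 and 14122, 14461 and 13296 (log2 fold change 2.46, standard error 0.11, adjusted p = 9.6e-10). The splicing kinase CLK1 and the deacetylase SIRT1 had log2 fold changes of 2.16 and 2.91.

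**Figure D4:**
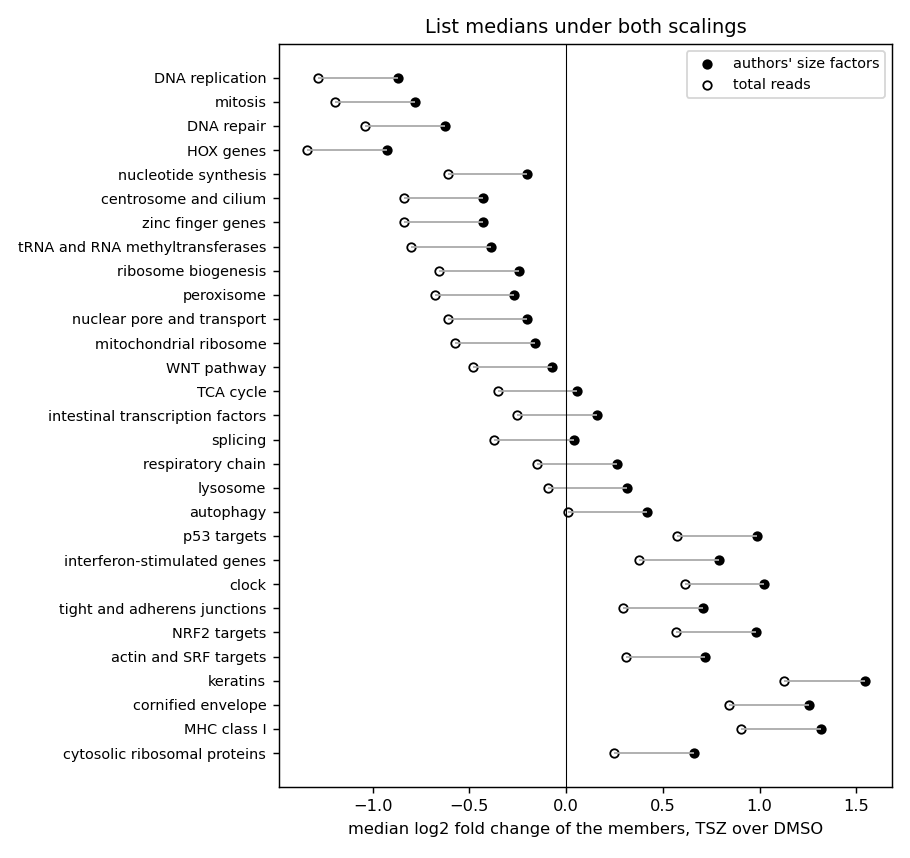
Median log2 fold change of the members of the same 29 lists with the authors' size factors (filled) and with total reads (open). Each list shifts left under total reads, as does the median of all tested genes (-0.01 to -0.42). The medians of TCA cycle, intestinal transcription factor, splicing, respiratory chain and lysosome genes cross 0.

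The machinery of necroptosis itself moved unevenly. RIPK3 was at 98.1, 74.6 and 105 in DMSO and 202, 205 and 238 with TSZ (log2 fold change 1.22, standard error 0.16, adjusted p = 3e-05), RIPK1 had a log2 fold change of -0.57, and MLKL had -0.32 and did not pass (adjusted p = 0.057 by limma). TAB1, an adaptor of the kinase TAK1, was at 365, 317 and 377 and 112, 123 and 155 (log2 fold change -1.45, standard error 0.16, adjusted p = 9.4e-06), and FADD, the adaptor of caspase-8, had -0.56. BIRC3, TNFAIP3 and CFLAR, which restrain TNF signalling or caspase-8, had 5.41, 8.12 and 2.02. In all, 11 of 25 tested members were higher and 3 lower (median 0.33), which flipped with total reads to 9 higher and 11 lower (median -0.08). Reads of FADD are uncertain, since 59% of its exonic bases overlap another gene.

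By their medians, the genes that fell had longer transcripts with more exons than those that rose, as a description without a test. The median transcript length was 3584 bases for lower genes, 3027 for higher genes and 3158 for the rest, and the median exon number was 10, 7 and 9. When genes were ranked by transcript length and divided into 5 bins of like size, 14.8% were lower and 32.2% higher in the shortest bin, whereas 28.3% were lower and 22.8% higher in bin 4. By GC content, 13.9% were lower in the lowest bin, 31.3% in the middle one and 18.8% in the highest. Without the 2 libraries that deviated with GC content these shares were 17.8%, 31.9% and 24.5%. By level, 16.2% of the bin with the most reads per kilobase in DMSO were lower and 36.1% higher.

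**Figure D5:**
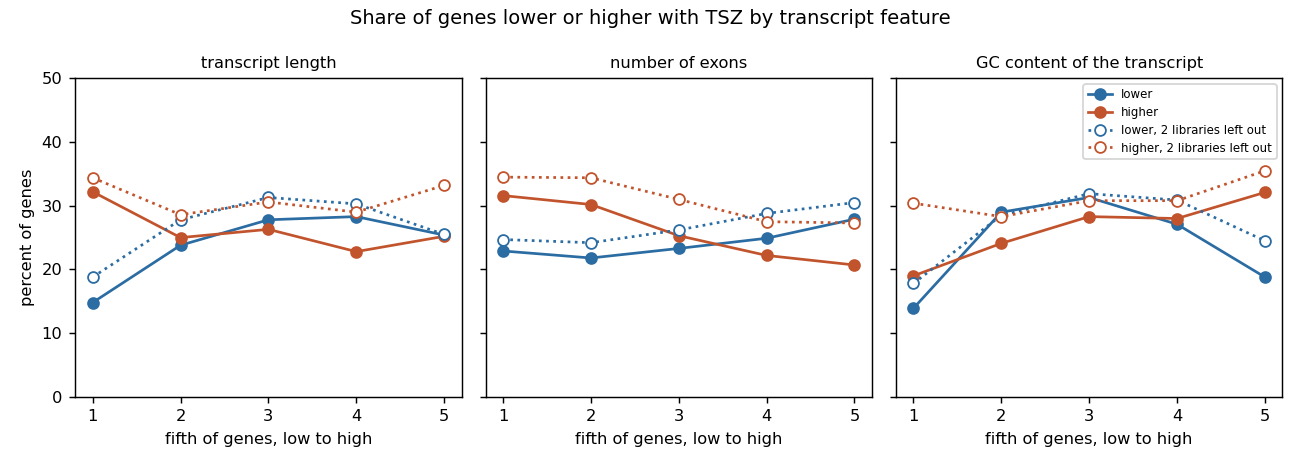
Percent of genes lower (blue) or higher (orange) with TSZ in 5 bins of transcript length, exon number and GC content, from low to high. Filled points use all libraries and open points leave out DMSO library b and TSZ library a, and among the length bins the share of lower genes is least for the shortest transcripts (14.8%).

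For 3 of these falls, the means of the other groups lay between those of DMSO and TSZ, a difference that was not tested here. KCNE3 had means of 176 ± 19.4 with TNFα and 134 ± 15.7 with TSZ+Nec-1s, CDKN2C of 73.3 ± 10.3 and 72.6 ± 5.39, and CLDN2 of 4754 ± 373 and 4602 ± 40.5 (SD, n = 3 each).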

How the data were processed

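PolyA-selected RNA of HT-29 cells was sequenced in 12 libraries, 3 for each of 4 groups, and the groups were taken from the sample labels. According to the submitters' processing notes and the study's methods, the tools were STAR, HTSeq (without strand) and DESeq with hg38. The deposited tables hold, for each gene and each pair of groups, the authors' mean signal per group (HTSeq counts divided by size factors), and the authors' own fold changes and p-values, which were not used. As each mean is a sum of whole reads times a step per library, the reads of each library were recovered, except for 24 of 11821 genes (mean 10 or above). Recovered reads were tested with limma 3.58.1 (voom, R 4.3.3) in 1 fit over 12 libraries with the authors' size factors, for the contrast of TSZ with DMSO, and p-values were adjusted by Benjamini-Hochberg over 11797 genes. The design had foreseen counts, and a count model was not used. The steps were tested on simulated data.

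Named genes were the 25 largest falls and the 15 largest rises outside the lists of cytokines, AP-1 and cholesterol genes (the cytokine list lacks CCL22; mean of at least 50, adjusted p under 0.05, libraries of the groups not overlapping), the 4 members of each list with the largest change at that threshold, the 15 lower genes with the highest mean in DMSO, and the members of the necroptosis and colon marker lists. Some further list members are named as examples outside this rule, and were chosen after their values were seen. Genes and lists were chosen with earlier results of these data known. Symbols were matched to GENCODE genes, 23161 directly and 1347 by another symbol, and 1977 were not matched. Python 3.11.15 was used for the rest. Recovered depth limits the precision, and the median standard error of a log2 fold change was 0.167.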

Additional observations from a re-analysis of the deposited data

How the results depend on the processing

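With total reads as scaling, 1689 genes were higher and 5682 lower and the median log2 fold change was -0.42, and with upper-quartile scaling these were 2375, 3905 and -0.19. With total reads the members higher were 5 of the BCL2 family, 34 cytosolic ribosomal proteins, 3 glycolysis, 10 autophagy, 8 ER chaperone, 4 heat shock, 11 interferon-stimulated, 15 junction, 5 histone, 15 actin and SRF, 4 colon marker and 1 fibroblast and endothelial marker genes. In the same order of lists, the members lower with total reads were 4, 2, 8, 9, 7, 3, 4, 5, 4, 4, 1 and 1. With only the 6 libraries of DMSO and TSZ, 2403 genes were higher and 2015 lower, and the members higher were 5 of the BCL2 family, 7 glycolysis, 8 ER chaperone, 5 histone and 1 fibroblast and endothelial marker genes, and also 14 respiratory chain, 12 autophagy, 6 heat shock and 4 proteasome genes. In that fit the members lower were 20 ribosome biogenesis, 17 centrosome and cilium, 10 mitochondrial ribosome, 9 methyltransferase, 8 nucleotide synthesis, 7 nuclear pore and 2 TCA cycle genes. Leaving out 1 library at a time gave 2749 to 3414 higher and 2389 to 3128 lower genes, 5 to 9 BCL2 family members and 1 to 2 fibroblast and endothelial markers. Without DMSO library b and TSZ library a, which deviated with GC content, 3654 were higher and 3144 lower. Of 297 named genes that passed the test, 278 kept direction and call with total reads, 18 lost the call and 1, CS, turned direction (log2 fold change -0.012). With GC content removed 297 kept both, with 3807 genes lower in all. No paired analysis was possible because the recovered libraries carry no replicate numbers. The cause of these changes was not tested.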
